A study of Mus musculus with 12 samples.

Results

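St14 encodes matriptase, a membrane-bound serine protease of epithelial surfaces, and was examined here together with 7 genes that mark or serve epithelia: Spint1, Spint2, Prss8, Epcam, Cdh1, Krt8 and Krt18. These 8 genes were taken from 19938 genes measured on the arrays, and each of the 8 was read by 1 probe set annotated to that symbol alone. The members were chosen by St14: it was selected on its average in these same arrays being higher in both mutants than in their wild types, so its values are a description and carry no test. The other 7 genes were set beside St14 to ask whether epithelial genes follow it. The rule uses none of their values, but they too were named with earlier results of these data known. RNA came from mouse embryonic fibroblasts carrying the S/S mutant of Rb1, from Rb1 +/+ cells matched to them (the S set), from cells carrying the L/L mutant of Rb1, and from Rb1 +/+ cells matched to those (the L set), with 3 arrays in each of the 4 groups. All cultures reached passage 4 in 10% serum and were then arrested by 72 h in 0.1% serum. What the alleles S and L alter in the Rb1 protein is not in the labels, and neither is whether the 3 samples of a group came from separate embryos, so the p-values cover the spread between these samples alone. In such bulk cultures, fewer cells of a type and less RNA per cell cannot be told apart.

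In epithelia, matriptase is made as an inactive precursor and activates other surface proteases and growth factor precursors. The Kunitz-type inhibitors encoded by Spint1 and Spint2 bind matriptase and keep it in check. Prss8 encodes prostasin, a lipid-anchored serine protease that works in the same cascade. Epcam and Cdh1 (E-cadherin) encode adhesion proteins of epithelial cell contacts, and Krt8 and Krt18 encode the keratin pair that forms the filaments of simple epithelia. Fibroblasts are mesenchymal cells, in which Cdh1 and Epcam are usually silent and transcription factors such as Zeb1, Zeb2 and Snai1, which repress Cdh1, are active.

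The arrays differed in ways that the groups do not describe. Array 1 of the S-set wild type correlated with the other 11 arrays at 0.955 to 0.974 and had the narrowest interquartile range, 3.10 against at least 3.39 elsewhere. That array was the highest of 12 for 7106 genes (35.6%). Array 1 of L/L and array 1 of its wild type were male by Xist and Y-linked genes, and the other 10 arrays were female. The Y-linked probe sets of Uty, Kdm5d and Eif2s3y read between 3.82 and 5.51 on the log2 scale in the 10 female arrays, where they have no target, and up to 5.17 without array 1 of the S-set wild type. Probe sets differ in background, so this range is a guide and no threshold for another gene. The 9 fibroblast markers had a mean log2 value of 11.05 to 11.61 in the 12 arrays.

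The St14 values that led to its choice come first. Its log2 RMA values were 8.05, 8.12 and 8.21 in S/S and 7.75, 7.62 and 7.53 in the matched wild type. In L/L they were 8.57, 8.82 and 8.69, against 8.0, 7.62 and 7.67 in the matched wild type. All 3 arrays of each mutant lay above all 3 arrays of its own wild type. Over all genes, 5.49% had this complete separation upward in S/S and 9.71% in L/L, and 21.4% had a higher mean in both mutants.

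The mean of St14 was 8.13 ± 0.08 in S/S and 7.63 ± 0.11 in its wild type (SD, n = 3 each), a log2 difference of 0.50 (SE 0.12), or 1.41-fold. In L/L the mean was 8.69 ± 0.13, against 7.76 ± 0.21 in its wild type (SD, n = 3 each), a log2 difference of 0.93 (SE 0.12), or 1.91-fold. Going by level, L/L was highest, with every array above every S/S array, then S/S, then the L-set and S-set wild types. The lowest St14 value of S/S, at 8.05, exceeded the highest value of the L-set wild type, at 8.0, by less than the SD of that wild type. The 2 wild types overlapped, with a difference of 0.13 (SE 0.12) between the L and S sets. The male arrays were the lowest of L/L and the highest of its wild type, and without both the L/L difference was 1.12. Without array 1 of the S-set wild type the S/S difference was 0.56.

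**Figure D1:**
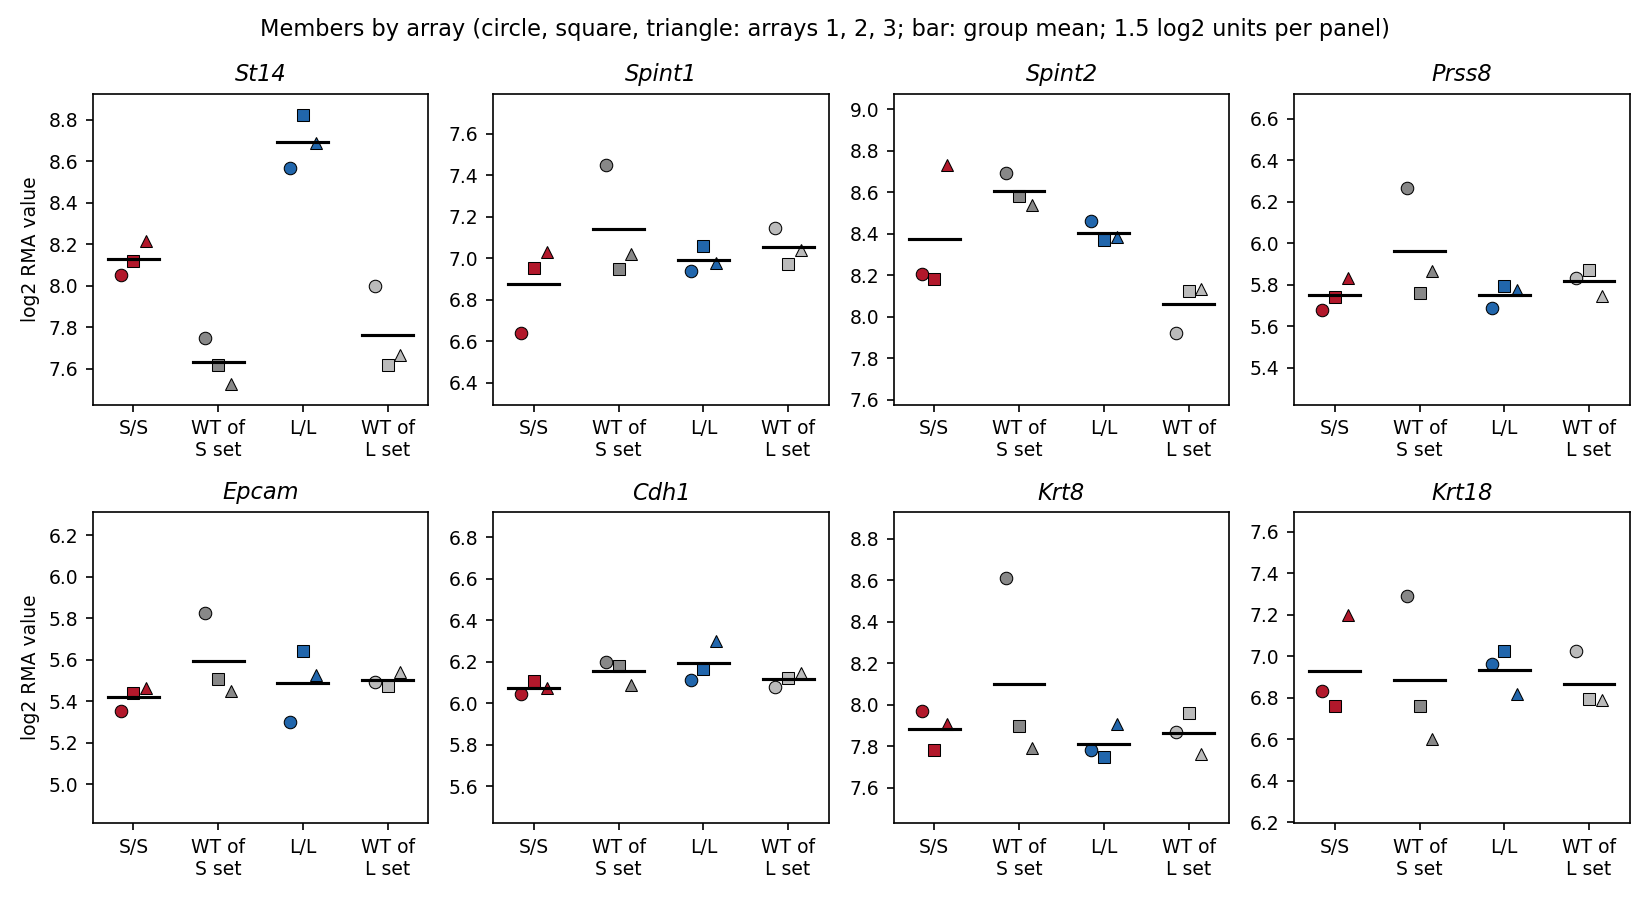
Log2 RMA values of the 8 genes in each array, by group (S/S, its wild type, L/L, its wild type); symbols mark arrays 1 to 3, bars are group means, and each panel spans 1.5 log2 units. St14 separates both mutants from their wild types, and array 1 of the S-set wild type is the highest point for Spint1, Prss8, Epcam, Krt8 and Krt18.

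Macrophages are a common passenger in such cultures. The 13 macrophage markers were all higher in S/S, by a median of 0.77 where the median over all genes was −0.04, and all lower in L/L, by a median of −0.37 where the median over all genes was 0.02. None of the 13 passed the test in either mutant, and 1 in S/S and 0 in L/L had an unadjusted p under 0.05, as did 10.1% and 3.27% of all genes. The mean level of the list ran from 9.12 to 9.25 in S/S and from 8.26 to 8.51 in its wild type. In the L set it ran from 7.36 to 9.10 in L/L and from 7.75 to 9.96 in its wild type. The test takes the spread of a gene from all 4 groups together, so this wide L-set spread also enters the S/S test. The lack of a call in S/S therefore does not show that the S/S cultures and their wild type were alike in these markers. The part of these markers in the St14 difference was not tested.

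Spint1, the gene of the first inhibitor, was not called in either mutant. It read 6.64, 6.96 and 7.03 in S/S and 7.45, 6.95 and 7.02 in its wild type. The difference of −0.26 (SE 0.14, adjusted p = 0.528) was not called, the groups overlapped, and its 95% interval ran from −0.57 to 0.04. It was −0.11 without array 1 of that wild type. In L/L Spint1 read 6.94, 7.06 and 6.98, against 7.15, 6.97 and 7.04 in wild type. That difference was −0.06 (SE 0.14, adjusted p = 1), with a 95% interval from −0.36 to 0.24.

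Spint2, the gene of the second inhibitor, was the member whose effects in the 2 mutants lay farthest apart. It read 8.21, 8.18 and 8.73 in S/S and 8.69, 8.58 and 8.54 in the matched wild type, with overlapping arrays and a difference of −0.23 (SE 0.14, adjusted p = 0.552). In L/L it read 8.46, 8.37 and 8.39, against 7.92, 8.12 and 8.14 in the matched wild type. All 3 L/L arrays lay above their wild type, as they did for 9.71% of all genes. The difference of 0.35 (SE 0.14), or 1.27-fold, had an unadjusted p of 0.0256 and an adjusted p of 1 and was not called. Without both male arrays it was 0.25. The S/S effect minus the L/L effect was −0.58 on the log2 scale (SE 0.19, adjusted p = 0.678), which was not called either.

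The wild types themselves differed in Spint2. The mean was 8.06 ± 0.12 in the L-set wild type and 8.60 ± 0.08 in that of the S set (SD, n = 3 each), a difference of −0.54 (SE 0.14, adjusted p = 0.0288). Spint2 was the 1 member of the 7 called between the wild types, where 8.71% of all genes were called. All 3 arrays of the L set lay below those of the S set, as for 16.1% of all genes. The call was lost when any 1 array of the L-set wild type was left out, with adjusted p of 0.127 without array 1, 0.0727 without array 2 and 0.0542 without array 3. Each mutant is compared with 1 of these wild types.

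Promoter sequences of RefSeq (GRCm38.p6), covering 250 bases before to 50 after a start, were found for 5 of the 8 genes: Spint1, Spint2, Epcam, Krt8 and Krt18. They are shown for Spint2, the member called between the wild types, and for Epcam, an adhesion gene usually silent in fibroblasts. The capitals mark the E-box CAGGTG on either strand (CACCTG on the strand shown), the letters recognised by the Zeb and Snail repressors. The Spint2 window is chr7:29281928-29282227 on the minus strand, the Epcam window chr17:87635729-87636028 on the plus strand, and both run 5′ to 3′.
Spint2: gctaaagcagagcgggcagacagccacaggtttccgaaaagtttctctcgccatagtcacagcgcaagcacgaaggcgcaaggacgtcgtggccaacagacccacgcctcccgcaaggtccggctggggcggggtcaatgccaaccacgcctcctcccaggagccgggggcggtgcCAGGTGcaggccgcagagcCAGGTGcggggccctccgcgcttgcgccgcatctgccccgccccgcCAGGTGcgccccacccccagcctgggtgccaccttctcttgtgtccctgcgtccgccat
Epcam: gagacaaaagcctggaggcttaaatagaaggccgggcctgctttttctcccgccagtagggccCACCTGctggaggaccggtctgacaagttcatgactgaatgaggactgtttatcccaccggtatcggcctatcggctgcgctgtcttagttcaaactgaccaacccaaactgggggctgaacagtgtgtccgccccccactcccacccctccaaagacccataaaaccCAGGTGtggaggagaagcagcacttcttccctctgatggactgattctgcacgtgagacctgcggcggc
Spint2 held 3 such E-boxes, starting 74, 55 and 9 bases before the start, and Epcam held 2, starting 187 and 19 bases before it. Krt8 and Krt18 held 1 each and Spint1 held 0. Among 32851 mouse promoters of the same length, 20.2% held at least 1, 2.88% at least 2 and 0.365% at least 3. The E2F-type words TTCCCGC and, as a variant, TTGGCGC, searched on both strands with overlaps counted, were in none of the 5 windows and in 6.81% of all promoters. A match describes letters in the window and is not a bound site.

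Prss8, the gene of the partner protease, was not called in either mutant. It read 5.68, 5.74 and 5.83 in S/S, against 6.27, 5.76 and 5.87 in its wild type, where array 1 stood above the rest. The difference was −0.21 (SE 0.12, adjusted p = 0.546), and −0.06 without that array. In L/L Prss8 read 5.69, 5.79 and 5.78, against 5.83, 5.87 and 5.75 in its wild type. The difference was −0.06 (SE 0.12, adjusted p = 1), with a 95% interval from −0.33 to 0.20.

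The adhesion genes showed no difference that passed. Epcam read 5.35, 5.44 and 5.47 in S/S, against 5.82, 5.51 and 5.45 in its wild type. Its difference of −0.17 (SE 0.12, adjusted p = 0.592) was −0.06 without array 1 of that wild type. In L/L Epcam read 5.30, 5.64 and 5.53, against 5.49, 5.47 and 5.54 in its wild type, a difference of −0.01 (SE 0.12, adjusted p = 1). In 4 of the 12 arrays Epcam lay above 5.51, the highest reading of the Y-linked probe sets in female arrays. These values do not tell whether Epcam RNA was detected at all, so a change in it could have gone unseen.

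Cdh1 had the smallest spread of the 8 genes, with a within-group SD of 0.0618. It read 6.04, 6.11 and 6.07 in S/S, against 6.20, 6.18 and 6.09 in its wild type, a difference of −0.08 (SE 0.09, adjusted p = 0.743). In L/L it read 6.11, 6.16 and 6.30, against 6.08, 6.12 and 6.15 in its wild type, a difference of 0.08 (SE 0.09, adjusted p = 1). The 95% intervals ran from −0.28 to 0.12 in S/S and from −0.12 to 0.27 in L/L, with an upper end of 1.21-fold for the probe set value. All 12 arrays lay between 6.04 and 6.30, and the groups overlapped in both sets. Without detection calls these values do not tell whether Cdh1 RNA was detected, so the intervals set no limit on a change in it. The same holds for Prss8, with a mean of 5.82 over the 12 arrays.

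The keratin pair gave no call either. Krt8 read 7.97, 7.78 and 7.91 in S/S, against 8.61, 7.90 and 7.79 in its wild type, and the difference of −0.22 (SE 0.17, adjusted p = 0.641) turned to 0.04 without array 1 of that wild type. In L/L Krt8 read 7.78, 7.75 and 7.91, against 7.87, 7.96 and 7.76 in its wild type, a difference of −0.05 (SE 0.17, adjusted p = 1). Krt18 read 6.83, 6.76 and 7.20 in S/S, against 7.29, 6.76 and 6.60 in its wild type, a difference of 0.05 (SE 0.17, adjusted p = 0.93). The Krt18 difference was 0.25 without array 1 of that wild type, still not called. In L/L Krt18 read 6.96, 7.02 and 6.82, against 7.03, 6.79 and 6.79 in its wild type, a difference of 0.07 (SE 0.17, adjusted p = 1).

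**Figure D2:**
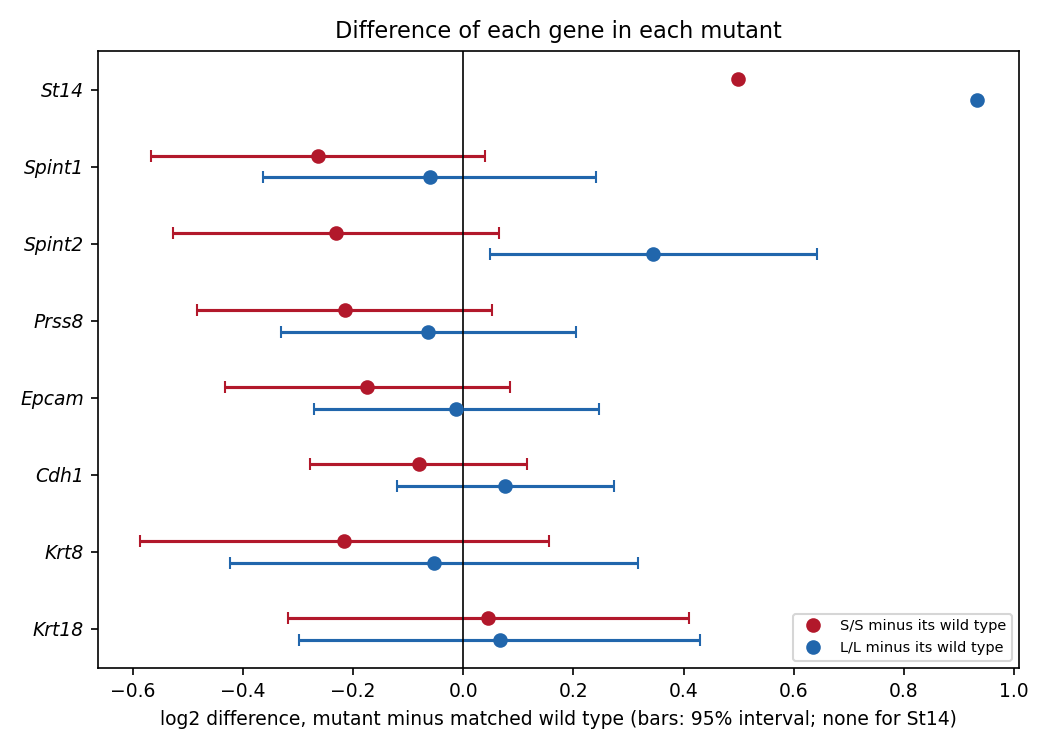
Log2 difference between each mutant and its matched wild type for the 8 genes (points), with 95% intervals from the model over all genes for the 7 genes other than St14. St14, picked for being higher in both mutants, stands at 0.50 in S/S and 0.93 in L/L, and among the 7 only the interval of Spint2 in L/L does not include 0, before adjustment.

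Counted together, 0 of the 7 genes beside St14 passed in S/S, where 0.12% of all genes passed, and 0 of 7 passed in L/L, where 0.0401% did. At an unadjusted p under 0.05 the counts were 0 of 7 in S/S, against 10.1% of all genes, and 1 of 7 in L/L, against 3.27% of all genes, by limma in each case. In S/S 1 of the 7 was positive and 6 negative, with a median of −0.21, against −0.04 over all genes. Without array 1 of the S-set wild type, 2 of 7 were positive and the median was −0.06, against −0.01 over all genes. In L/L 3 of the 7 were positive and 4 negative, with a median of −0.01 against 0.02 over all genes, and without both male arrays 5 were positive and the median was 0.08. The contrast of both effects (S/S effect minus L/L effect) was called for 0 of the 7, where 0.015% of all genes were called, and 1 of the 7 (Spint2) had an unadjusted p under 0.05, against 6.5% of all genes. Of all genes, 42.4% were positive in S/S and 55.9% in L/L.

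Several of the 7 genes varied together from array to array, less so when 1 array was left out. Over the 12 arrays, each taken relative to the mean of its set, Prss8 correlated with Spint1 at r = 0.90 (rho = 0.77), with Krt8 at r = 0.87 (rho = 0.54) and with Epcam at r = 0.83 (rho = 0.58). The same r without array 1 of the S-set wild type were 0.68, 0.13 and 0.45. In that array Krt8 was higher by 0.77, Krt18 by 0.61, Spint1 by 0.46, Prss8 by 0.46 and Epcam by 0.35 than the mean of the other arrays of its group. St14 had r between −0.26 and 0.34 with the 7, and between −0.38 and 0.52 without that array. These correlations are descriptions over arrays that share genotypes, and they carry no test.

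Genes that matriptase acts on or beside were taken as a list of 18, of which 17 were measured. None passed in either mutant, and 1 of 17 had an unadjusted p under 0.05 in S/S and 1 in L/L, where 10.1% and 3.27% of all genes did. Plau, which encodes urokinase, a protease precursor that matriptase can activate, led in both mutants. It read 8.65, 8.93 and 8.87 in S/S, against 8.07, 8.24 and 8.48 in its wild type, a difference of 0.55 (SE 0.17, adjusted p = 0.308) with all 3 S/S arrays higher, as for 5.49% of all genes. In L/L it read 8.48, 8.50 and 8.47, against 7.97, 7.77 and 8.52, a difference of 0.40 (SE 0.17, adjusted p = 1) with overlapping arrays. Tmprss3, another transmembrane serine protease gene, differed by −0.33 in S/S (adjusted p = 0.516), or −0.11 without array 1 of that wild type, and by 0.03 in L/L.

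Met, which encodes the receptor of hepatocyte growth factor, a ligand whose precursor matriptase can process, differed by 0.01 in S/S and 0.17 in L/L, neither called. It was called between the wild types, at 8.0 ± 0.12 in that of the L set and 7.21 ± 0.17 in that of the S set (SD, n = 3 each), a difference of 0.79 (adjusted p = 0.00843), which was not called without both male arrays (adjusted p = 0.068). The matriptase list as a whole had a median of −0.06 in S/S, with 4 of 17 positive, and 0.04 in L/L, with 13 of 17 positive, beside medians over all genes of −0.04 with 42.4% positive and 0.02 with 55.9% positive. Without array 1 of the S-set wild type 8 of 17 were positive in S/S.

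Junction genes gave 0 calls of 28 in each mutant, with 5 in S/S and 1 in L/L at an unadjusted p under 0.05, where 10.1% and 3.27% of all genes stood. Their median was −0.10 in S/S with 9 of 28 positive, and 0.05 in L/L with 19 of 28 positive. Without array 1 of the S-set wild type the S/S median was 0.03 with 16 of 28 positive. In all 12 arrays 5 of the 28 lay at or below 5.51, the highest reading of the Y-linked probe sets in female arrays. So did 1 of the 17 matriptase list genes and 0 of the keratin and regulator lists. That reading is no threshold, and dim genes above it may be undetected too. A change in such genes could have gone unseen. Cldn1, a tight junction claudin gene, read 10.41, 10.15 and 10.14 in S/S, against 9.64, 9.74 and 9.86 in its wild type, and 9.88, 9.93 and 9.87 in L/L, against 10.17, 10.60 and 10.26 in its wild type. All S/S arrays lay above and all L/L arrays below their wild types, with differences of 0.48 (SE 0.13, adjusted p = 0.218) and −0.45 (SE 0.13, adjusted p = 0.513), neither called. The upward separation in S/S held for 5.49% of all genes, and the share with a downward one in L/L was not counted. The S/S effect of Cldn1 minus its L/L effect was 0.94 and was not called (adjusted p = 0.162). Between the wild types Cldn1 was higher in the L set by 0.60 (adjusted p = 0.0123), a call lost without array 2 of the L-set wild type (adjusted p = 0.0609). Jup, which encodes plakoglobin of desmosomes and adherens junctions, differed by 0.32 in S/S (SE 0.10, adjusted p = 0.301) and 0.20 in L/L (SE 0.10, adjusted p = 1), with all mutant arrays higher in both sets. Pkp2, a further junction gene named after its values were seen, also had all mutant arrays higher in both sets. It differed by 0.35 in S/S, or 0.19 without array 1 of that wild type, and by 0.23 in L/L, neither called. Its lowest S/S array, at 8.356, barely exceeded the highest array of its wild type, at 8.353. Such upward separation held for 5.49% of all genes in S/S and 9.71% in L/L, and the share with both was not counted.

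Other keratin genes gave 0 calls of 9 in each mutant, where 0.12% of all genes were called in S/S and 0.0401% in L/L. At an unadjusted p under 0.05 by limma stood 0 of 9 in S/S and 1 of 9 in L/L, against 10.1% and 3.27% of all genes. Krt19, a keratin of simple epithelia and mesothelium, read 7.44, 7.09 and 7.22 in L/L, against 6.98, 6.76 and 6.74 in its wild type, a difference of 0.42 (SE 0.12, adjusted p = 0.569) with all 3 L/L arrays higher, as for 9.71% of all genes. In S/S its difference was −0.03 (adjusted p = 0.926). Krt80 and Krt20 differed by −0.32 and 0.32 in S/S (adjusted p = 0.503 and 0.528), or −0.10 and 0.13 without array 1 of that wild type, and Krt23 by −0.07 in L/L. The keratin median was −0.09 in S/S, or −0.01 without that array, and 0.02 in L/L.

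Regulators of the epithelial state gave 0 calls of 17 in each mutant, where 0.12% of all genes were called in S/S and 0.0401% in L/L. At an unadjusted p under 0.05 by limma stood 2 of 17 in S/S and 2 of 17 in L/L, against 10.1% and 3.27% of all genes. Klf5, an epithelial transcription factor gene, read 9.20, 9.10 and 9.28 in L/L, against 8.88, 8.86 and 8.75 in its wild type, a difference of 0.36 (SE 0.11, adjusted p = 0.783). Grhl3, of the grainyhead family that drives epithelial genes, differed by 0.24 in S/S (adjusted p = 0.504) and 0.27 in L/L (adjusted p = 1). Grhl1 and Ovol1 differed by −0.36 and −0.33 in S/S (adjusted p = 0.429 and 0.482), or −0.17 and −0.19 without array 1 of that wild type, and by 0.03 and 0.02 in L/L. The list median was −0.17 in S/S and 0.03 in L/L, and the S/S median was 0.05 without array 1 of the S-set wild type.

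Mesenchymal regulators gave 0 calls of 12 in each mutant, with medians of 0.11 in S/S and −0.05 in L/L. Over all genes 0.12% were called in S/S and 0.0401% in L/L. At an unadjusted p under 0.05 by limma stood 1 of 12 in S/S and 0 of 12 in L/L, against 10.1% and 3.27% of all genes. Cdh2 (N-cadherin, the cadherin of mesenchymal cells) differed by 0.32 in S/S (adjusted p = 0.415), and the repressor genes Zeb2 and Snai1 by 0.20 and −0.21. Leaving out array 1 of the S-set wild type gave Zeb2 at −0.02, Snai1 at −0.26 and a list median of 0.01 in S/S. In L/L Tcf4 and Zeb2 differed by −0.21 and −0.19, neither called. Snai1 was called between the wild types, with a difference of −0.53 (L set minus S set, adjusted p = 0.0106), a call lost without array 1 of the L-set wild type (adjusted p = 0.062). Of the 83 genes measured over the 5 lists, Met, Cldn1 and Snai1 were the 3 called between the wild types, where 8.71% of all genes were called.

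**Figure D3:**
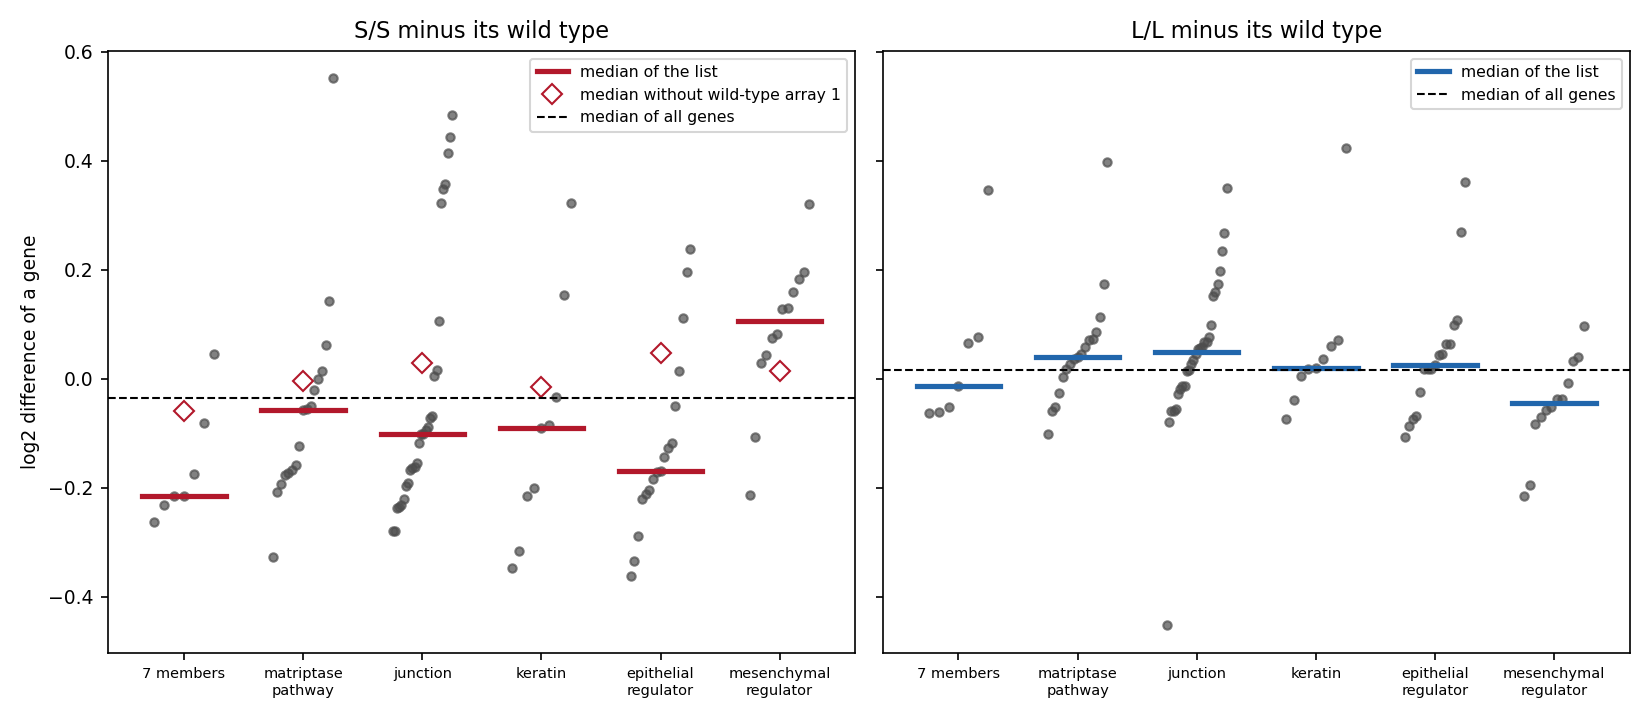
Log2 differences of single genes (dots) in S/S (left) and L/L (right) for the 7 genes beside St14 and the 5 lists, with list medians (bars), the median of all genes (dashed line) and, for S/S, the median without array 1 of its wild type (diamonds). The S/S median of the 7 genes is −0.21 with that array and −0.06 without it.

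Marker lists of other cell types were read in every array. The 10 epithelial markers had a mean level of 6.28 to 6.33 in S/S and 6.88, 6.30 and 6.30 in arrays 1, 2 and 3 of its wild type. In L/L the range was 6.33 to 6.48, and in its wild type 6.26 to 6.36. That array 1 was the highest of 12 for 8 of the 10 epithelial markers and for 5 of the 7 genes beside St14, against 35.6% of all genes. All 10 epithelial markers were negative in S/S, by a median of −0.20, and 4 of 10 were positive without that array, with a median of −0.01. The 7 mesothelial markers ran from 6.90 to 7.04 in S/S and 7.10 to 7.13 in its wild type, and from 6.82 to 6.96 in L/L and 6.61 to 6.82 in its wild type. Between the wild types all 7 were lower in the L set, by a median of −0.36 against −0.07 over all genes. Of the 7, 3 were called there, where 8.71% of all genes were, and 1 without both male arrays, where 1.52% were. Fibroblast markers gave 2 calls of 9 between the wild types (1 higher, 1 lower), endothelial markers 1 of 8, and epithelial and macrophage markers 0. The 8 endothelial markers ran from 6.64 to 6.75 in S/S and 6.51 to 6.60 in its wild type, and from 6.80 to 6.92 in L/L and 6.63 to 6.96 in its wild type. In S/S 6 of the 8 endothelial markers were negative, with a median of −0.07. Emcn, which encodes endomucin and was named after its values were seen, read 8.50, 8.21 and 8.48 in S/S, against 6.70, 6.64 and 7.01 in its wild type (difference 1.62, adjusted p = 0.197). It ran from 7.82 to 9.05 in L/L and from 6.98 to 9.06 in its wild type, a spread that enters the S/S test too. Without both male arrays, 1 of the 8 endothelial markers was called in S/S, where 0.186% of all genes were. With array 1 of the S-set wild type left out as well, 1 of the 8 was called, where 0.351% of all genes were. The part of the markers of these lists in the St14 difference, or in that of Spint2 between the wild types, was not tested.

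**Figure D4:**
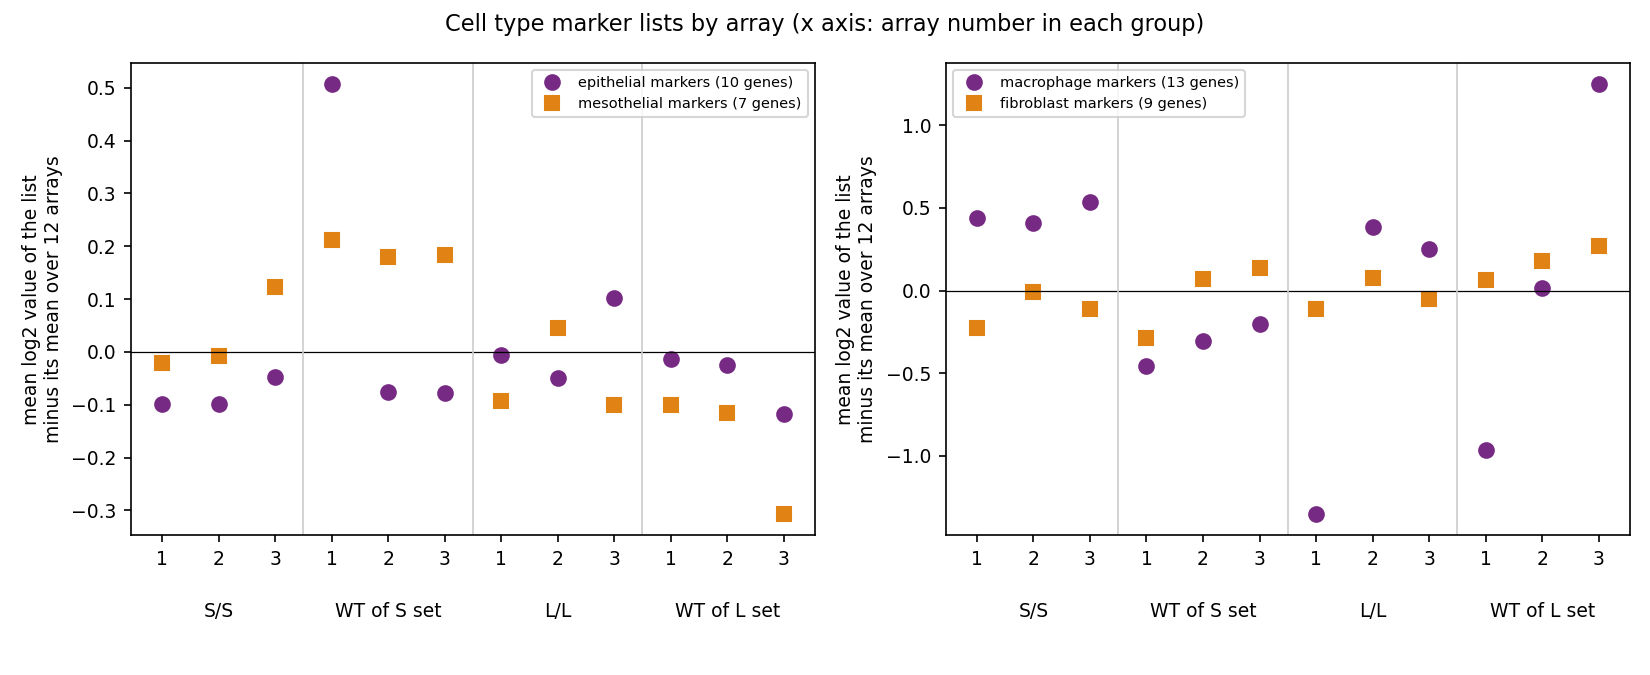
Mean log2 value of each marker list in each array minus its mean over 12 arrays, for epithelial and mesothelial markers (left) and macrophage and fibroblast markers (right); the lists of epithelial and mesothelial markers share Krt19. The epithelial list peaks in array 1 of the S-set wild type, and the macrophage list is high in all S/S arrays and varies most in the L set.

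The 5 genes whose pattern was most like that of St14 were on none of the lists. The 5 lists hold 83 of the 19938 genes, so 5 top genes outside them do not show that epithelial genes depart from St14. Relative to the mean of each set over the 12 arrays, the highest correlations with St14 among the other 19937 genes were those of Tbc1d8 (r = 0.95, rho = 0.90), Phyhip (r = 0.94, rho = 0.90), Mgmt (r = 0.92, rho = 0.90), Kank3 (r = 0.92, rho = 0.89) and Pml (r = 0.91, rho = 0.85). Mgmt encodes a DNA repair methyltransferase and Pml the organising protein of nuclear bodies. Since St14 separates mutants from wild types in both sets, genes with a like separation rank high, and these r carry no test. Without the 2 arrays farthest from the St14 median, arrays 2 and 3 of the L-set wild type, these r were 0.92, 0.94, 0.88, 0.88 and 0.89. The best placed of the 7 members were Krt18, at rank 2384 with r = 0.34, and Spint2, at rank 2530 with r = 0.33. The ranks of the list genes were not read, so some of them may stand higher than these members.

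**Figure D5:**
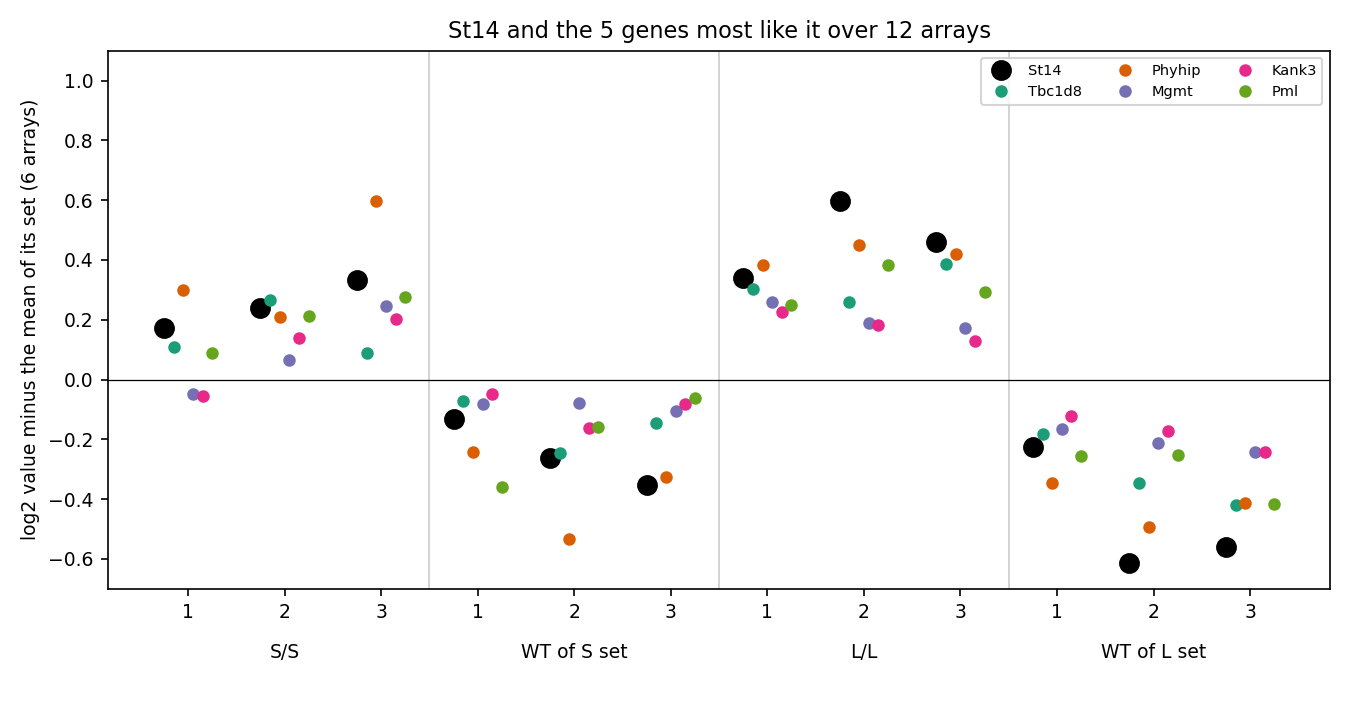
Log2 values of St14 (large black points) and of the 5 genes most like it, each minus the mean of its set of 6 arrays, by array and group. St14 lies above 0 in all S/S and L/L arrays and below 0 in all wild-type arrays, by the pattern for which it was picked.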

How the data were processed

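Each of 12 total RNA samples was measured on its own Affymetrix Mouse Gene 1.0 ST array. The deposited values are log2 RMA values per probe set, made by the authors with Partek per the design text and the submitters' processing notes; RMA corrects background, normalizes between arrays and summarises probes. Their range showed the log2 scale, and the sources used here name no genome build. Of 35556 probe sets, the platform annotation gave 1 symbol for 21789, several for 1621 and none for 12146. Each of 19938 genes was read by its probe set with the highest mean over the 12 arrays, with no filter on dim values. limma 3.58.1 in R 4.3.3 fitted 4 group means to 12 arrays (8 residual and 5.19 prior degrees of freedom). Tests were two-sided, with Benjamini-Hochberg adjustment over all genes in each contrast and calls at an adjusted p under 0.05; the script was tested on simulated data. Precision is limited by the number of arrays, and the values came without detection calls. Named genes are all members, genes of the 5 lists called in any contrast, the 2 of smallest p per list and mutant, and the 5 most like St14. Cell type markers are given by list, and Emcn and Pkp2 were named after their values were seen. The members, lists and motifs were chosen with earlier results of these data known. Alternatives were single arrays left out, quantile normalization, median centring, sets fitted alone, a replicate block, male arrays left out, array weights, a trended robust variance, a mean of at least 6 and every probe set tested. One more, leaving out 3 arrays together, was chosen after seeing the data.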

Additional observations from a re-analysis of the deposited data

How the results depend on the processing

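Under every alternative run, 0 of the 7 genes beside St14 were called in S/S, in L/L or between the effects. St14, picked for its direction, stayed higher in both mutants, which is a description. Since every mutant array lay above every array of its wild type, leaving out arrays could not turn that direction. Leaving out 1 array at a time gave St14 differences of 0.45 to 0.56 in S/S and 0.86 to 1.05 in L/L, and without both male arrays of the L set, with or without array 1 of the S-set wild type, the L/L difference was 1.12. The Spint2 call between the wild types gave counts of 0 to 1 with single arrays left out, and 0 without both male arrays (adjusted p = 0.177) and without 3 arrays together (0.161). List genes called between the wild types numbered 2 to 5 with single arrays left out (5 without array 1 of the S-set wild type or array 3 of that of the L set), 5 after quantile normalization, 1 without both male arrays and 13 with array weights. Array weights also called 1 list gene in S/S (Jup, 0.41), 3 in L/L (Cldn1, Krt19 and Klf5) and 1 between the effects (Cldn1, 1.00), named after their values were seen. With these weights 2.08% of all genes were called in S/S, 1.69% in L/L, 1.47% between the effects and 32.7% between the wild types. They gave array 1 of the S-set wild type 0.0774 and array 2 of that group 5.87.

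Signs turned for differences that were not called. Without both male arrays, Spint1 in L/L was 0.011 and Epcam in L/L 0.076, also when the 3 arrays were left out together. Array weights gave Spint1 0.054, Prss8 0.062, Krt8 0.011 and Krt18 0.083 between the wild types, and Prss8 0.08, Krt8 0.067 and Krt18 0.074 between the effects. Leaving out the 3 arrays gave Spint1 0.023, Epcam 0.030, Cdh1 0.0012, Krt8 0.016 and Krt18 0.11 between the wild types, Krt8 0.040 in S/S, and Krt8 0.074 and Krt18 0.12 between the effects. Median centring gave Krt18 0.022 between the effects. With single arrays left out, values between the wild types ran from −0.18 to 0.069 for Spint1, −0.25 to 0.0033 for Prss8, −0.16 to 0.024 for Epcam, −0.39 to 0.019 for Krt8 and −0.16 to 0.19 for Krt18. Between the effects they ran from −0.25 to 0.0008 for Prss8, −0.32 to 0.092 for Krt8 and −0.16 to 0.18 for Krt18, in S/S from −0.37 to 0.040 for Krt8 and −0.096 to 0.25 for Krt18, and in L/L from −0.088 to 0.081 for Epcam. The cause was not tested.

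Same-numbered arrays correlated in their deviations at 0.39, 0.47 and −0.12 in the S set and 0.60, 0.058 and 0.36 in the L set. Among the mutant arrays, array 1 of S/S and arrays 1 and 3 of L/L correlated best with their own number, and the others did not. These values do not settle whether the numbers mark pairs. With the replicate block within each set, 0 of the 7 genes were called, Spint2 in L/L had an adjusted p of 0.921, St14 differences stayed 0.50 and 0.93, and calls over all genes were 37 in S/S and 5 in L/L, against 24 and 8 without it. Sets fitted alone give no value between sets or effects, the block gives none between the wild types, and a mean of at least 6 leaves out Prss8 and Epcam. The 3 arrays a group and the lack of detection calls limit what could be resolved.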
